A study of Mus musculus with 2 samples.

Results

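POU3F1 occupancy was described at the genes of the classical cadherins and of the non-clustered protocadherins, 32 genes taken as a fixed list of symbols and looked up in the gene table that pairs genes with peaks. A gene counted as having a peak where the table held its symbol. Of the 32 genes, 16 had a peak, among 2323 gene names in the table as a whole. The data came from CUT&RUN, in which a nuclease tethered to an antibody cuts chromatin around the antibody's target and the released DNA is sequenced. Embryonic day 14 (E14) retina of mice labelled WT, of strain CD1 (with retinal cells as the cell type), was profiled with an antibody against POU3F1 in 1 library and with rabbit IgG in 1 library. The genes and peaks below are those of the POU3F1 library, which carried no other allele or treatment. The IgG library was not analysed here. The number of embryos is not given in the sources used here. A peak list holds no expression level, so the tissue label could not be set against marker genes.

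Cadherins are transmembrane adhesion proteins whose extracellular repeats bind calcium and, mostly, the same cadherin on a neighbouring cell. Type I classical cadherins give strong adhesion and hold tissues such as the neuroepithelium together, while type II classical cadherins are expressed in patterns that differ between neuron classes and help sort them and match their connections. Inside the cell classical cadherins bind catenins, which link them to actin. Non-clustered protocadherins adhere more weakly, signal through other partners and act in axon growth and in the sorting of axons. POU3F1 is a POU-domain transcription factor, and at this age retinal ganglion cells are being born. POU factors are known for binding an octamer with the letters ATGCAAAT.

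No peak was assigned at a promoter of these genes, and the stretches shown here are those just before the start used for the promoter window of 3 genes. Peak sequences were not used here. A RefSeq promoter window (GRCm38.p6, 250 bases before the start and 50 after) was found for 21 of the 32 genes. None of the 24 peaks paired with the list overlapped a promoter window in that table. The 250 bases before the start are printed for the protocadherin genes Pcdh8, Pcdh20 and Pcdh7, which had the strongest peaks of the list. They lie at chr14:79771313-79771562 (minus strand), chr14:88471397-88471646 (minus strand) and chr5:57717831-57718080 (plus strand). The stretch of Pcdh7 lies inside the annotated gene body, which begins at 57716145. The TSS used for the distance of its peak, 57717968, lies within the stretch. All are written 5′ to 3′ on the strand of the gene, and capitals mark the octamer in either orientation.
Pcdh8: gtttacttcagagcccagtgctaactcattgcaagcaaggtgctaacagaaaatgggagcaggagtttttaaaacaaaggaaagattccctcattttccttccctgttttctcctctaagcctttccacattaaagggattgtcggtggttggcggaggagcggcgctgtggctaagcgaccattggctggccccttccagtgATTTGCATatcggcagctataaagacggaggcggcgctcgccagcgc
Pcdh20: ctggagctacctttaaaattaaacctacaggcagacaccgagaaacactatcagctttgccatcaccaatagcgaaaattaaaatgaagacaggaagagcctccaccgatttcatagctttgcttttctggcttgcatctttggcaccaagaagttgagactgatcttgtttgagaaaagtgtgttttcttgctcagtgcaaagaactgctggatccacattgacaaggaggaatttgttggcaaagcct
Pcdh7: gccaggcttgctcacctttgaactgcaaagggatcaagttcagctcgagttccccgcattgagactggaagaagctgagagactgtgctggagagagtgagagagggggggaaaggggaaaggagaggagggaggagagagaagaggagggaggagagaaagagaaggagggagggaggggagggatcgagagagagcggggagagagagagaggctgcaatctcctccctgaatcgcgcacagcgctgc

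The octamer was searched as ATGCAAAT on both strands of the 300-base windows. Of the 21 genes with a window, which had 24 windows in all, 1 held it, Pcdh8. Counted by window and not by gene, the octamer was held by 1.74% of all 32851 promoter windows of the table. In Pcdh8 it lay on the strand opposite to the gene, read there as ATTTGCAT, from 47 to 40 bases before the start. The core of 7 letters, ATGCAAA, which is contained in the octamer, was found in the same gene alone and in 4.63% of all windows. Pcdh8 had its peak 108669 bp upstream, far outside this window. A match of letters is a description and not a measured site.

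Peaks at these genes were distant and of ordinary height. Of the 32 genes, 50.0% had an assigned peak, against 10.2% of 21887 protein-coding genes. These genes lie in large loci, however, and other protein-coding genes had an assigned peak more often where the locus was long. The locus of a gene was measured as its body plus the gaps to the nearest protein-coding genes on either side, each gap limited to 1000 kb. Its median was 1668 kb over the 32 genes and 77.8 kb over all other protein-coding genes. Among genes with a locus of at least 1668 kb, 9 of 16 list members had a peak (56.2%), against 105 of 188 other genes (55.9%). Among shorter loci the counts were 7 of 16 list members (43.8%) and 2110 of 21667 other genes (9.74%), although the median locus was still longer in the list, 417 kb against 76.9 kb. The part of locus length in these counts, and in the share over all 32 genes, was not tested. Within 50 kb of the transcription start site (TSS), 2 of the 32 genes had a peak (6.25%), against 3.67% of protein-coding genes.

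**Figure D1:**
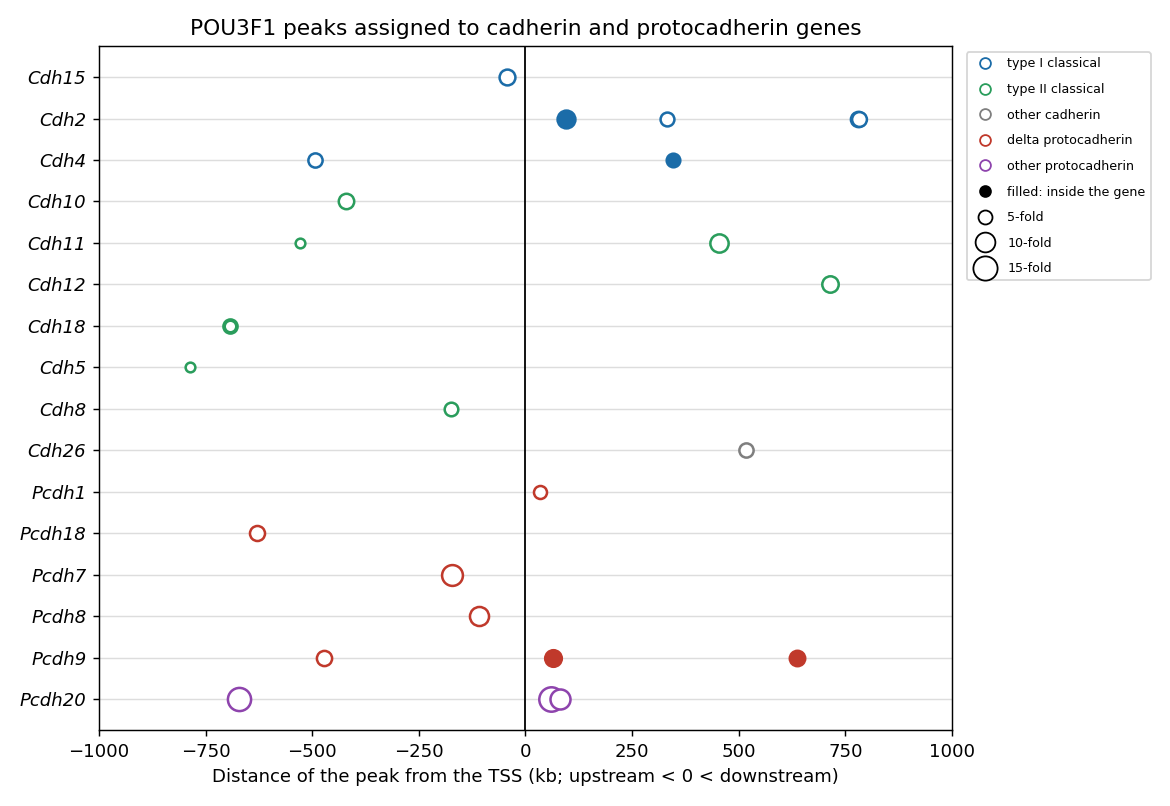
Signed distance in kb between the TSS (vertical line) and each assigned POU3F1 peak, for the 16 genes with a peak. Circle area is proportional to the fold enrichment, colours are the classes of the family, and filled circles lie inside the gene. No circle lies within 5 kb of the line, and the largest belong to Pcdh20.

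The 16 genes formed 26 gene-peak pairs on 24 distinct peaks, since neighbouring list members shared 2 peaks. A single peak was assigned to 10 genes, and 6 genes had more: Cdh2 had 4 peaks, Pcdh20 and Pcdh9 had 3 each, and Cdh4, Cdh11 and Cdh18 had 2 each. By class, 3 of 5 type I cadherins, 6 of 13 type II cadherins, 5 of 9 delta protocadherins (Pcdh1, Pcdh7, Pcdh9 and Pcdh11x with Pcdh8, Pcdh10, Pcdh17, Pcdh18 and Pcdh19), 1 of the other 3 protocadherins and 1 of 2 other cadherins had a peak. Over symbols, that is 10 of 20 cadherins and 6 of 12 protocadherins.

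Height is given as the authors' fold, which equals (summit pileup + 1) / (local background + 1) in these peaks, where the summit pileup is the number of overlapping fragments. The added 1 lowers the fold most where the background is low. The background was recovered from fold and p-value, and it need not be local to each peak. The same value, 1.04, recurred at peaks of Cdh12, Cdh15, Pcdh9 and Cdh2, on different chromosomes. The retina is a mixture of cells, so modest binding in many cells and strong binding in few cannot be told apart. The fold of the 24 peaks had a median of 5.98 with quartiles of 5.06 and 8.22, against 6.37 with quartiles of 4.91 and 8.84 over the other 2628 peaks. The summit pileup had a median of 21 fragments against 19 in the other peaks. At least 10-fold were 4 of the 24 peaks (16.7%), against 493 of the others (18.8%). The highest fold in the list was 15.2, while the highest among the others was 165.7. Median peak length was 374.5 bp against 352 bp. With 1 library there was no replicate, so the error given for a fold is the exact Poisson 95% interval of its pileup. It covers the counting error of the pileup only and takes the local background as fixed.

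**Figure D2:**
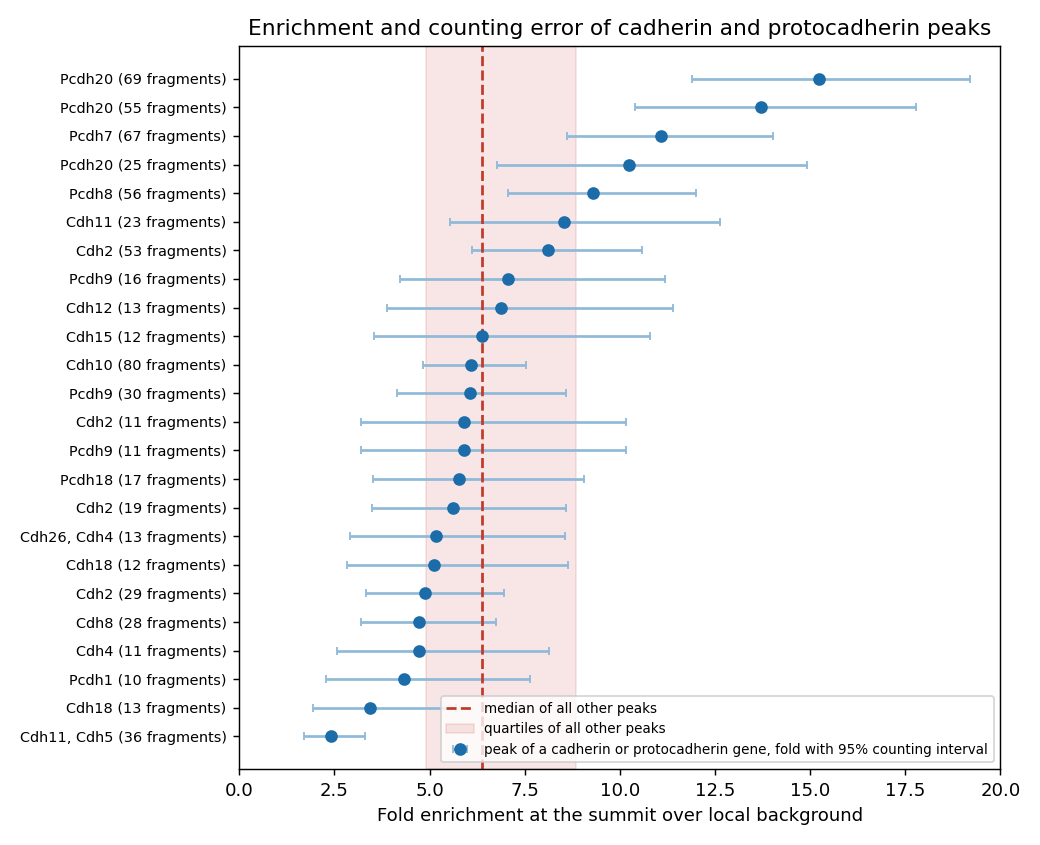
Fold enrichment (linear axis) of the 24 peaks, with bars for the exact Poisson 95% interval of the summit pileup, given in fragments beside each gene. The dashed line and the band are the median (6.37) and quartiles (4.91 and 8.84) of the other 2628 peaks. The interval lies above the band for the 2 highest Pcdh20 peaks, while that of the peak shared by Cdh11 and Cdh5 lies below it.

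Among type I classical cadherins, Cdh2, which encodes N-cadherin, the main cadherin of the neural retina, had the most peaks. The strongest lay inside the gene, 95680 bp downstream of the TSS at chromosome 18: 16713317 to 16713815, with 8.12-fold (interval 6.12 to 10.6) and 53 fragments. A second, 330914 bp downstream, had 4.89-fold with 29 fragments. The remaining pair lay 779669 and 783166 bp downstream, inside the long non-coding RNA gene Gm30512, with 5.89-fold (11 fragments) and 5.60-fold (19 fragments). Each of the 4 was also assigned to Gm10036, a pseudogene, and the 2 most distant ones were nearer to its TSS, 196783 and 193286 bp away. The 4 intervals overlap each other from 6.12-fold to 6.95-fold. Whether the peaks of Cdh2 differ in height was not tested.

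Cdh4 encodes R-cadherin, first described in the retina. It had a peak inside the gene, 345000 bp downstream of the TSS at chromosome 2: 179787324 to 179787538, of 4.72-fold (2.55 to 8.14) on 11 fragments. The TSS of Taf4, which encodes a general transcription factor subunit, was closer to it at 189215 bp. The other Cdh4 peak, 494013 bp upstream at chromosome 2: 178948290 to 178948546, had 5.16-fold (2.92 to 8.57) on 13 fragments. It was shared with Cdh26, a cadherin gene outside the classical types, 517811 bp downstream of that gene's TSS. Cdh15, which encodes M-cadherin of muscle cells, had 1 peak 43541 bp upstream at chromosome 8: 122804306 to 122804545. It had 6.39-fold (3.54 to 10.8) on 12 fragments and lay in the body of the neighbouring metabolic gene Acsf3, 28920 bp from the TSS of Acsf3. Cdh1 and Cdh3, the E- and P-cadherin genes of epithelia, had no assigned peak. They lie side by side, and the nearest peak, 53.3 kb from the body of Cdh1 and 166.6 kb from that of Cdh3, had 9.01-fold and was assigned to Has3 and Tango6.

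Among type II classical cadherins, Cdh11, a gene of mesenchymal and some neural cells, had the strongest peak. It lay 454319 bp downstream of the TSS at chromosome 8: 102331212 to 102331435, with 8.53-fold (5.54 to 12.6) on 23 fragments. The second Cdh11 peak was 528900 bp upstream, at 103314397 to 103314687 on the same chromosome, and was also the only peak of Cdh5, 787083 bp upstream of it. Cdh5 encodes VE-cadherin of endothelial cells. This shared peak had the lowest fold of the 24, 2.40 (1.70 to 3.30), but not the fewest fragments, with 36 over a local background of 14.4. Its −log10 q-value was 2.83. It lay inside the long non-coding RNA gene Gm39234. Cdh8, which in mouse helps bipolar cells of the retina choose their layer, had 1 peak 175228 bp upstream at chromosome 8: 99591556 to 99591842, inside the long non-coding RNA gene A330008L17Rik, with 4.72-fold (3.19 to 6.76) on 28 fragments.

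Cdh10, Cdh12 and Cdh18 lie in a run of 5 type II genes on chromosome 15, with Cdh6 and Cdh9. Cdh10, which with Cdh6 and Cdh9 marks parts of direction-selective circuits of the mouse retina, had 1 peak 419778 bp upstream at 18400227 to 18400876. It had the highest pileup of the list, 80 fragments, but 6.08-fold (4.83 to 7.54), since its local background was 12.3. Cdh12 had 1 peak 713562 bp downstream, of 6.88-fold (3.89 to 11.4) on 13 fragments. Cdh18 had 2 peaks, 693783 and 691918 bp upstream, of 5.12-fold (12 fragments) and 3.43-fold (13 fragments). The second had a −log10 q-value of 1.91, the lowest of the 24. Cdh12 and Cdh18 are large neuronal genes of 1149.5 and 928.6 kb, and neither body held a peak. The TSS from which these distances are measured lies inside the annotated body in both, at 21111453 and 23036464. From the bodies themselves, the nearest peak was 226.5 kb away for Cdh12 and 204.1 kb away for Cdh18. Cdh6 and Cdh9 had no assigned peak, and the nearest peak was 1688.6 and 1543.1 kb from their bodies.

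The run of 10.4 Mb from Cdh6 to Cdh18 held 9 peaks, or 0.861 per Mb (exact Poisson 95% interval 0.394 to 1.64), against 1.04 per Mb over the autosomes. Of these 9 peaks, 4 were assigned to list members. Cdh20, Cdh7 and Cdh19 form another run of type II genes, on chromosome 1, and had no assigned peak. The 6.21 Mb from Cdh20 to Cdh19 did hold 5 peaks (0.805 per Mb, interval 0.261 to 1.88). The peak nearest to Cdh20 was 1175.7 kb away. Another peak was the nearest to both Cdh7 (2536.6 kb) and Cdh19 (3442.4 kb). These distances are farther than pairing by the table reaches. Neither rate differed from that of the autosomes beyond its counting interval. Cdh22 and Cdh24, the last type II members, had no peak either, with the nearest at 510.4 and 154.9 kb.

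The 2 strongest peaks of the list belonged to Pcdh20, which lies with Pcdh8, Pcdh17 and Pcdh9 within 14.1 Mb of chromosome 14. Pcdh20, whose single promoter stretch is printed above, had 3 peaks that were each over 10-fold. A pair lay downstream of the gene. The stronger, 60167 bp from the TSS at 88410896 to 88411563, had 15.2-fold (11.9 to 19.2) on 69 fragments, and the other, 81050 bp from the TSS at 88390118 to 88390575, had 10.2-fold (6.76 to 14.9) on 25 fragments. The remaining peak lay upstream, 671753 bp away at 89142792 to 89143506, with 13.7-fold (10.4 to 17.8) on 55 fragments, and was assigned to no other gene. The 2 downstream peaks were also paired with Tdrd3, at 994590 and 973707 bp. In the whole list of 2652 peaks these 3 ranked 209, 484 and 261 by fold, and the next strongest of the 24, after its 2 highest, was that of Pcdh7 on chromosome 5.

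Pcdh8, whose product in rodent neurons takes N-cadherin in from the surface, had 1 peak 108669 bp upstream at chromosome 14: 79879784 to 79880179, with 9.29-fold (7.05 to 12.01) on 56 fragments. Olfm4, a gene for a secreted glycoprotein, shared it at 120321 bp. Pcdh9, a neuronal protocadherin gene of 879.1 kb, had peaks inside its body 64385 and 636884 bp downstream of the TSS and another 472668 bp upstream. Their folds were 7.05 (16 fragments), 6.07 (30 fragments) and 5.89 (11 fragments), with overlapping intervals, and none was shared. Pcdh17, between Pcdh8 and Pcdh20, had no assigned peak, and the nearest one was 970.8 kb from its body and paired with no placed gene. The 14.1 Mb from Pcdh8 to Pcdh9 held 19 peaks, 1.35 per Mb (0.810 to 2.10), which did not differ from 1.04 per Mb over the autosomes beyond the counting interval.

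Pcdh7 encodes the relative of a Xenopus protocadherin that acts in the growth of retinal axons. Its only peak, 171892 bp upstream at chromosome 5: 57545742 to 57546409, had 11.1-fold (8.62 to 14.02) on 67 fragments and was assigned to no other gene. Pcdh18 had 1 peak 629216 bp upstream, of 5.78-fold (3.50 to 9.06) on 17 fragments, inside the cystine transporter gene Slc7a11, whose TSS was 57079 bp away. Pcdh1, a protocadherin gene of epithelial and neural cells, had the peak closest to a TSS of the list, 34591 bp downstream at chromosome 18: 38175057 to 38175285. It was beyond the end of the gene, inside the long non-coding RNA gene Gm38566, with 4.33-fold (2.28 to 7.63) on 10 fragments, the fewest of the 24. Arap3, a gene for a GTPase-activating protein, shared it at 177597 bp. Pcdh12, an endothelial protocadherin gene close by, had no assigned peak, although this same peak was 91.8 kb from its body.

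Pcdh10, which in mouse acts in the growth of striatal axons, and Pcdh15, known for the tip links of hair cells, had no assigned peak, and the nearest were 1727.7 and 1092.8 kb from their bodies. On chromosome X, Pcdh19, whose human counterpart is an epilepsy gene, and Pcdh11x had none, at 3230.8 and 5261.6 kb. Cdh13, which encodes T-cadherin, held to the membrane by a lipid anchor, had none in 1184.9 kb of gene body, and the nearest was 891.8 kb beyond it. Among the 16 genes without an assigned peak, 9 had more than 1000 kb between gene body and closest peak, and 7 had less. The table measures from the TSS and stops at the domains of neighbouring genes, so a peak close to a body need not be paired with that gene.

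**Figure D3:**
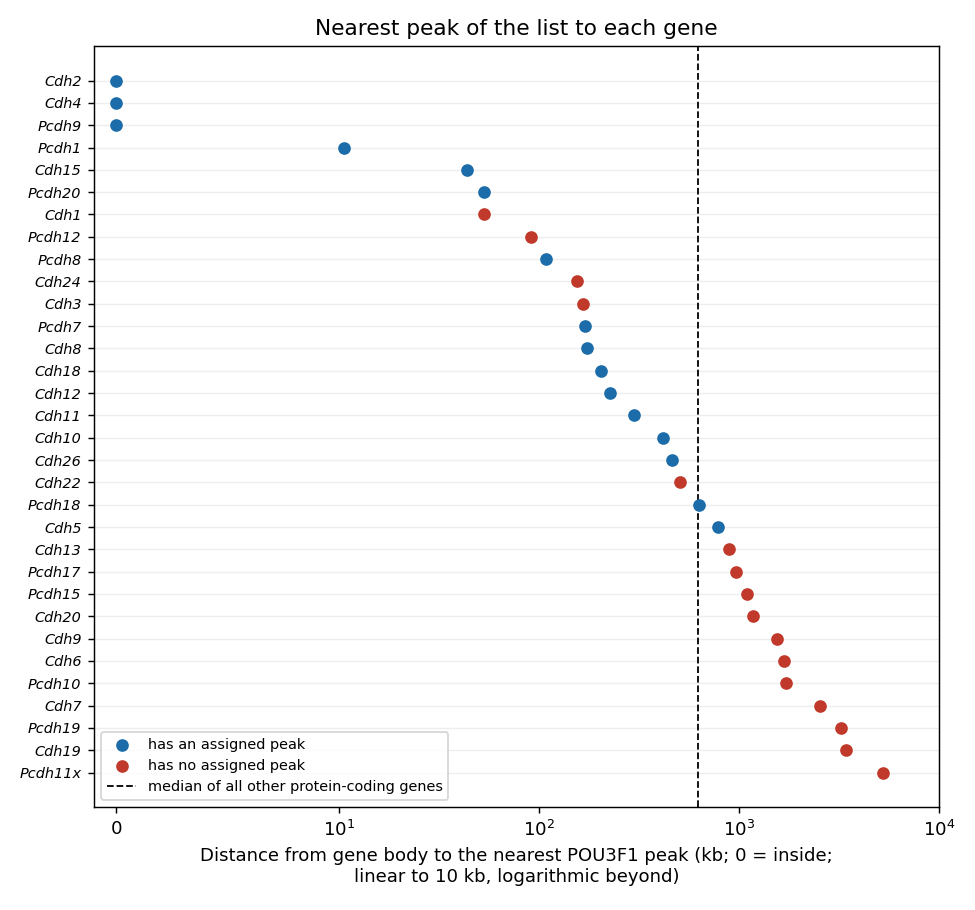
Distance in kb from the body of each of the 32 genes to the nearest peak of the whole list, on an axis that is linear to 10 kb and logarithmic beyond, with genes in order of distance. Cdh2, Cdh4 and Pcdh9 hold a peak (0 kb). The dashed line is the median of all other protein-coding genes, 627 kb.

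Distances to the TSS were long. The median over the 26 pairs was 463 kb, against 160 kb over the other 4401 pairs. No pair lay within 5 kb of a TSS, against 8.98% of the other pairs, and 2 lay at 5 to 50 kb (7.69% against 14.9%). At 50 to 500 kb lay 13 pairs (50.0% against 60.7%), and over 500 kb lay 11 (42.3% against 15.4%). Those over 500 kb included the pairs of Cdh12 and Cdh18, which were measured from a TSS inside the annotated gene body. Other genes with loci of at least 1668 kb had 363 pairs, of which 37.2% lay over 500 kb and 0.826% within 5 kb, with a median of 359 kb. In the 18 pairs of list members with such loci the median was 463 kb and 8 lay over 500 kb (44.4%). Upstream of the TSS lay 13 of the 26 pairs (50.0%), against 42.6% of the other pairs.

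**Figure D4:**
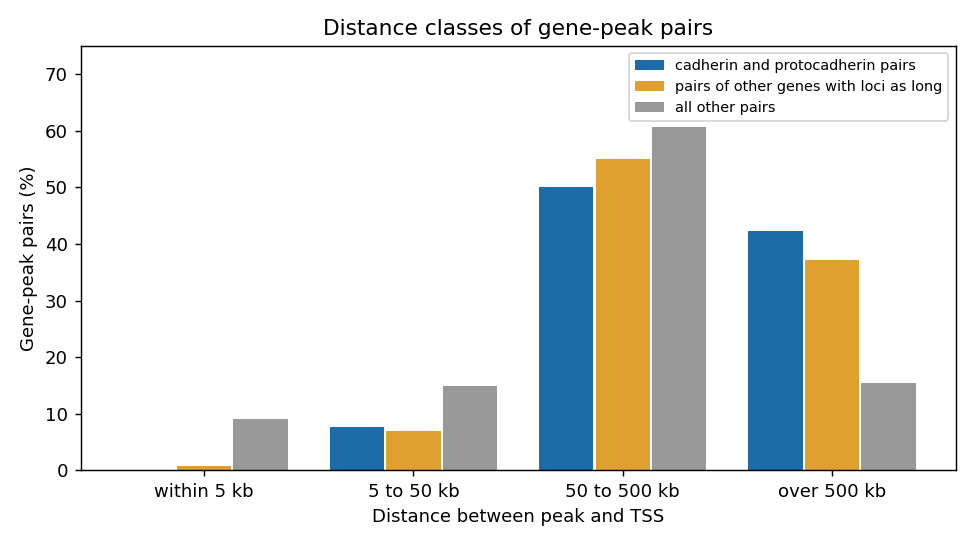
Share of gene-peak pairs (%, axis from 0) in each class of distance to the TSS, for the 26 cadherin and protocadherin pairs, the 363 pairs of other genes with loci of at least 1668 kb, and all 4401 other pairs. The class over 500 kb holds 42.3%, 37.2% and 15.4% of them, and the class within 5 kb 0%, 0.826% and 8.98%.

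A small share of the pairs had the peak inside the gene itself. Pairs with the peak inside the paired gene were 4 of 26 (15.4%), against 25.9% of the other 4124 pairs that could be placed. The bodies of the 32 genes cover 9.60 Mb and held 4 peaks, 2 in Pcdh9 and 1 each in Cdh2 and Cdh4, so that 3 of 32 genes (9.38%) held a peak, against 3.39% of protein-coding genes. The genes are long, with a median body of 126 kb against 17.1 kb in other protein-coding genes, and per length the order was the other way. The bodies held 0.417 peaks per Mb (exact Poisson 95% interval 0.114 to 1.07), against 1.17 per Mb (1.103 to 1.24) in the bodies of other protein-coding genes. The intervals do not overlap, but they cover counting error in 1 library and are not a test between groups of genes. Among genes with loci of at least 1668 kb the rates were 0.425 per Mb (0.0877 to 1.24) in list members and 1.68 per Mb (1.44 to 1.96) in others. Of the 24 peaks, 13 lay outside all annotated genes and 5 lay in long non-coding RNA genes. For 19 of the 24 the nearest assigned TSS was that of a list member, and for 5 it was that of another gene. In all, 11 peaks were also assigned to a gene outside the list.

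Other genes of cadherin adhesion were taken as a list of 105 genes, of which 10 had a peak (9.52%), against 10.2% of protein-coding genes. The list includes 58 clustered protocadherin genes, which lie together and had none, and without them the count was 10 of 47 genes (21.3%). These shares were not set against genes of similar locus length, so the part of locus length in them was not tested. Catenins, the intracellular partners, had a peak in 3 of 10 cases. Ctnnb1, which encodes beta-catenin of adhesion and Wnt signalling, had 5 peaks, the strongest of 30.5-fold 313.5 kb from the TSS and the nearest at 57.0 kb (5.88-fold). Ctnna2, the neuronal alpha-catenin gene, had 2 (strongest 4.91-fold, 409.3 kb away), and Ctnnd2, the neuronal delta-catenin gene, had 1 (4.42-fold, 228.8 kb). Among seven-pass and giant cadherins 3 of 9 had a peak. Fat3, which shapes amacrine cell dendrites in mouse, had 3, of which the nearest lay 16.1 kb downstream (5.90-fold), nearer than any peak of the 32 genes. Fat4, a planar polarity gene, also had 3 (nearest 26007 bp downstream, 4.72-fold), and Fat1 had 1 (5.43-fold, 94.4 kb).

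None of 3 calsyntenin genes had an assigned peak. Nectin3 had 2 peaks (strongest 4.58-fold), and it was the only gene with a peak among 5 afadin and nectin genes. Dsc1, a desmosomal cadherin gene of skin, had 1 of 5.12-fold at 37.1 kb, and Cdhr3, a cadherin-related gene of airway cells, had 1 of 5.04-fold at 57.2 kb. Zeb2, which encodes a repressor of E-cadherin, had 2 (strongest 7.20-fold at 85.2 kb, nearest 4.58-fold at 52.3 kb), while the other 4 repressor genes listed with it had none.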

How the data were processed

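CUT&RUN was analysed from 1 POU3F1 library. The build listed is mm10 and the tools listed are Bowtie2, MACS2 and deepTools (versions not given), per the submitters' processing notes. The authors' deposited list held 2652 peaks in narrow-peak layout, with a fold (ratio) at the summit, which the values show as (pileup + 1) / (local background + 1), −log10 p- and q-values, and a score of 10 times the −log10 q-value without decimals. Per the file headers, the deposited gene table was made with GREAT 4.0.4 on mm10, with basal domains of 5000 bp upstream and 1000 bp downstream, extended to 1000 kb, and curated domains. It held 4427 pairs and signed distances in bp. All 26 pairs of the list were placed on peaks, as were 93.7% of all pairs. For a placed pair the peak midpoint lay within 1 bp of the position given by the TSS and the signed distance. That TSS could lie up to 5000 bp from an annotated start. Library depth is unknown. Summit pileups were recovered from fold and p-value (−log10 p within 0.001) for 97.6% of peaks and for all 24 of the list. Placement and recovery were also run on data simulated under the same formula and placement rule. Such a run checks the computation and not those assumptions. Gene positions and promoters are RefSeq GRCm38.p6, the same assembly, and coordinates count from 1. No test was made, since 1 library has no replicate and genes are not replicates. Medians, shares and exact Poisson 95% intervals were computed with Python 3.11.15 and scipy 1.17.1. All 32 genes were named, with full values for the strongest, nearest and shared peaks, and other genes where they share a peak or belong to a list of 105 adhesion genes. The members and lists were chosen with earlier results of these data known.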

Additional observations from a re-analysis of the deposited data

How the results depend on the processing

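Of 33 values recomputed under an alternative, 29 kept their value within 1.5 times (counts) or within the binomial 95% interval of the median. The other 4 moved with the limit on distance. With pairs within 50 kb, the genes with a peak were 2 in place of 16 and the peaks 2 in place of 24. With pairs within 500 kb, 15 peaks and 7 upstream pairs remained of 24 and 13. Genes with a peak ranged from 11 (pairs within 500 kb) to 16 (q-value under 0.01) over the other alternatives, with 14 at a q-value under 0.001, 13 at 5-fold or more and 12 with the nearest assigned TSS only. The median distance was 172 kb with pairs within 500 kb, in place of 463 kb (binomial interval 172 to 637 kb). This large change counted as kept only because 172 kb is the lower limit of that interval. Under the other alternatives tried for it, the median distance was 420 to 454 kb. The median fold ranged from 5.36 to 6.63. Set against the other peaks, the median was 0.939 times as high by fold and 1.11 times by summit pileup. This change of direction also counted as kept. Merging intervals less than 5 kb apart left 22 peaks. The octamer count of 1 gene was the same with the core of 7 letters, which the octamer contains, so that this count could not fall. No paired analysis was possible because each antibody had 1 library. Summit pileups of 10 to 80 fragments limit how far single peaks can be ranked.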
